A study of Mus musculus with 6 samples.

Results

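The 8 genes examined here, Ahsg, Fetub, Lect2, Fgf21, Gdf15, Angptl4, Angptl8 and Inhbe, encode proteins that the liver secretes into the blood and that act on metabolism in other tissues, a class known as hepatokines. They were chosen by gene symbol, with earlier results of these data known, and make up 8 of the 45777 genes listed. All 8 were among the 17274 genes tested. The study asked whether loss of the iron exporter ferroportin (FPN, encoded by Slc40a1) in hepatocytes changes what the liver secretes, and Ahsg and Lect2 are the genes on which that question centres.

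Livers came from 3 littermate control mice (LT) and 3 mice with hepatocyte-specific loss of Fpn (Fpn-LKO), with 1 library per mouse. LT mice carried the floxed Fpn alleles without Cre, and Fpn-LKO mice carried the same alleles together with Alb-Cre. In Alb-Cre the albumin promoter drives Cre in hepatocytes, a design meant to leave Fpn intact in other liver cells. All 6 mice were male, of strain C57BL/6 and fed a high-fat diet (HFD), which was started at 8 weeks of age, and the labels place all 6 libraries in Batch 1. Livers from mice labelled Fpn-LKO are called LKO-labelled below. The floxed allele came from a 129S stock and was backcrossed to C57BL/6J. The mice without the albumin-Cre transgene were the controls, so the transgene and the loss of Fpn cannot be told apart. Age at collection and hours of fasting before it are not given in the sources used here.

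Hepatokines differ in how their genes are controlled. Fetuin-A (Ahsg) and fetuin-B (Fetub) are abundant plasma glycoproteins made by hepatocytes, and fetuin-A inhibits the insulin receptor's kinase. Lect2 encodes leukocyte cell-derived chemotaxin 2, which impairs insulin signalling in muscle. Fgf21 and Gdf15 encode hormones induced by nutrient and cell stress, with Fgf21 also induced by fasting through PPARα. Angptl4 and Angptl8 restrain lipoprotein lipase, Angptl4 mainly in the fasted and Angptl8 in the fed state, and Inhbe encodes the βE subunit of activin E.

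Depth and the deleted gene were examined first. Total counts lay between 43086184 and 47778683 reads per library. Values below are CPM, counts scaled to library size after TMM scaling (trimmed mean of M values), unless TPM, the deposited value scaled per transcript length, is named. Slc40a1 had 154, 180 and 126 CPM in the LT livers, taken in replicate order here and below, and 143, 143 and 176 CPM in the LKO-labelled livers (log2 fold change 0.01, SE 0.16, adjusted p = 0.995 by the quasi-likelihood test of edgeR, adjusted over all genes by Benjamini-Hochberg). The transcript of the deleted gene was not lower, so each direction below rests on the labels. The study itself reports FPN loss in this mouse line, from primary hepatocytes and from immunostaining of liver. Counts over the whole gene in bulk liver were not split by exon or by cell type here. The transferrin receptor gene Tfrc, whose mRNA is lost when cells hold more iron, had 35.3, 28.0 and 52.6 CPM in the LT livers, and 13.1, 17.2 and 18.9 CPM in the LKO-labelled livers. Ftl1, the ferritin light chain, had 2029, 2055 and 1712 CPM in the LT livers, and 2928, 2707 and 3266 CPM in the LKO-labelled livers. The groups did not overlap for either gene, but neither passed the same edgeR test (adjusted p = 0.570 and 0.926). Fth1, the ferritin heavy chain, had a log2 fold change of 0.12 (SE 0.15, adjusted p = 0.995 in that edgeR test).

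Hepatocyte identity was clear from the 8 hepatocyte markers, all detected, whose summed level was 63953 to 78878 CPM in the LT livers, and 66859 to 75296 CPM in the LKO-labelled livers. Of the 17274 genes, 4 passed an adjusted p of 0.05 (0.0232%), each with the higher level in the LKO-labelled livers, and 830 had an unadjusted p under 0.05 (4.8%), 452 higher and 378 lower. The 4 were Nnmt, Rpl29, Gm10036 and Nudc-ps1, named here because they are so few. On log2(TPM + 1), for the 11464 genes whose mean TPM reached 1, the unadjusted split was 441 higher and 131 lower. The median log2 fold change of those genes was 0.08, beside -0.0040 over the 17274 genes tested on counts. For all 23233 genes with a TPM above 0 the split was 763 higher and 300 lower, with a median of 0.02. As the gene sets differ, the part played by the unit was not tested.

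Of the 8 genes, 7 have a RefSeq promoter window of GRCm38.p6, which is the mouse build mm10. Each window runs from 250 bases before to 50 bases after an annotated start of the gene. Angptl4 was not among the 7. These windows are given first because some members share letters there that the choice of genes did not use. The C/EBP-ATF response element, a site at which ATF4 pairs with a C/EBP protein during amino acid and endoplasmic reticulum stress, was searched as TGATGNAA on both strands. It was found in 3 of the 7 genes with a window, Fgf21, Angptl8 and Inhbe. Of the 32851 windows in the RefSeq table, 3.97% held it. The 7 genes have 9 windows, so a count of genes and a share of windows are unlike measures. The 3 stretches below, read 5′ to 3′ on the gene's strand, show the match in capitals, where TTGCATCA is the reverse complement of TGATGCAA.
Fgf21, chr7:45615596-45615655, minus strand: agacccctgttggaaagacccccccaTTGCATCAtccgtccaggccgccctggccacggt
Angptl8, chr9:21835354-21835413, plus strand: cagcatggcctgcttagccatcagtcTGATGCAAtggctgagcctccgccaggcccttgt
Inhbe, chr10:127351996-127352055, minus strand: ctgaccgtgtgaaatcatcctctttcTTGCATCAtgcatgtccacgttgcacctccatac
The element begins at base -139 from the start in Fgf21, at base -130 in Angptl8 and at base -181 in Inhbe. A match describes letters in a window and is not a bound site.

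FoxO1 is a transcription factor that insulin keeps out of the nucleus. Its site was searched for at Ahsg and Lect2 because the study reports FoxO1 as a regulator of both genes. The study describes conserved FoxO1 motifs in both proximal promoters and FoxO1 binding there by chromatin immunoprecipitation. It also reports higher activity of the human promoters of both genes, in reporter assays in HepG2 cells, when FoxO1 was overexpressed. The full FoxO site GTAAACA, on either strand, was in 3.65% of all windows. The one member with a match was Fetub, at base -236 of the window at its second annotated start (chr16:22919972-22920018, plus strand). The stretch there reads as follows, with TGTTTAC, the reverse complement of GTAAACA, in capitals.
Fetub: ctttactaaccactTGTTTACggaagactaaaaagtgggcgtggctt
The shorter FoxO core TGTTTA, which lies inside that reverse complement, was in 13.4% of all windows and again matched Fetub alone among the 7 genes. Neither spelling was present within these 300-base mouse windows of Ahsg and Lect2. That says nothing of the human promoters, or of sites farther out or spelled otherwise. The upstream bases of the 2 genes are printed with the motifs that were found there in capitals, a C/EBP site at base -32 in Ahsg (TTGCNNAA, 10.8% of windows, here read on the opposite strand) and an HNF1 half-site at base -78 in Lect2 (GTTAAT, 7.10% of windows).
Ahsg, chr16:22891815-22892014, plus strand: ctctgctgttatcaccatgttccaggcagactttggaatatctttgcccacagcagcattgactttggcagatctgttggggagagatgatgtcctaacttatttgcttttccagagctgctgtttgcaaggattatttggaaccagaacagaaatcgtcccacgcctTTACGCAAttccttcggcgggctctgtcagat
Lect2, chr13:56548569-56548768, minus strand: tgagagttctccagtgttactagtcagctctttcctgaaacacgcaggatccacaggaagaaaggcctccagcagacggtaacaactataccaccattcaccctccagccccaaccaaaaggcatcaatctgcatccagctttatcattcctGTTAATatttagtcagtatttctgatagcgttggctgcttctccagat
Bases in Lect2 are counted from a start slightly inside the gene's outer end. The C/EBP site was also in Angptl8, at base -100, and the HNF1 half-site in Gdf15, at base -76. The HNF4 site CAAAGTCCA was in 0.475% of all windows and in none of the 7 genes. C/EBP proteins, HNF1 and HNF4 are transcription factors that maintain hepatocyte gene expression.

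Of the 8 hepatokine genes, none passed the threshold in the comparison of the LKO-labelled livers with LT. None had an unadjusted p under 0.05 by edgeR, where 4.8% of all genes did. None passed an adjusted p of 0.05 by DESeq2 (0.417% of all genes) or by edgeR's exactTest (0.365%). Nor did any by limma on log2(TPM + 1), where 0.0611% of 11464 genes did. On CPM the groups overlapped for all 8, where they did not for 10.6% of the genes tested. With shares this small, a count of none among 8 genes does not set the members apart from other genes. The log2 fold change was above 0 for 6 members and below 0 for 2, with a median of 0.10 beside -0.0040 over all genes. In bulk liver, fewer cells of a type and less RNA per cell cannot be told apart.

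**Figure D1:**
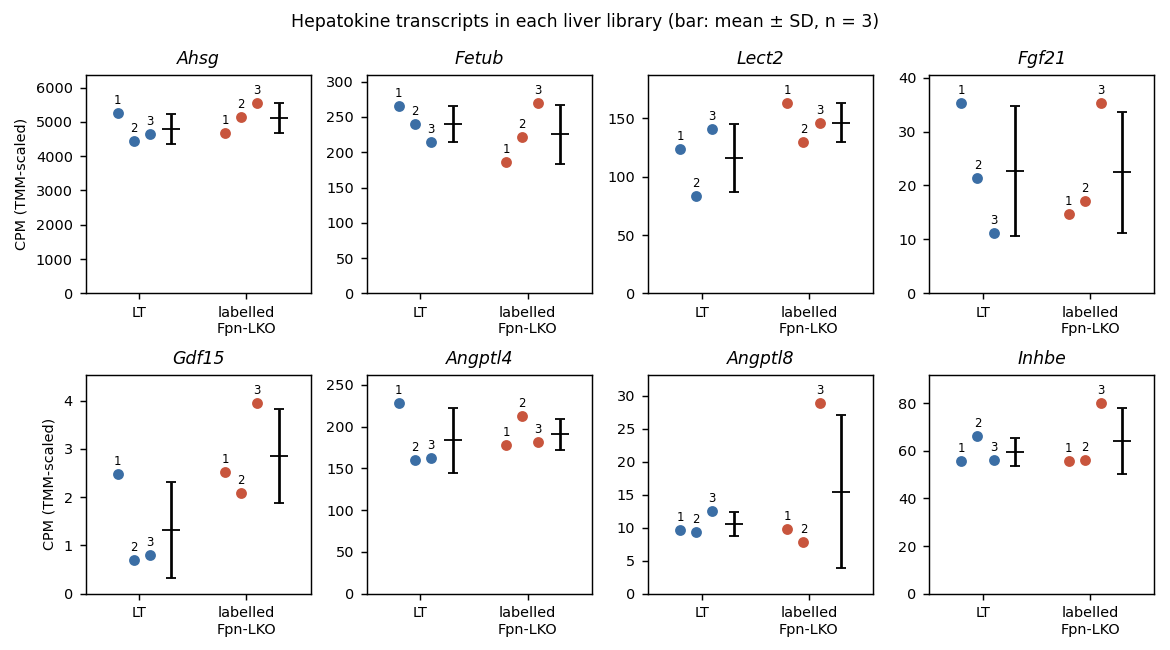
CPM of the 8 hepatokine genes (vertical axis, from 0) in each of 3 LT and 3 LKO-labelled livers, with the replicate number above each point and the mean ± SD (n = 3) beside it. The points of the 2 groups overlap in every panel, and LKO-labelled replicate 3 is the highest library for 6 of the 8 genes.

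Fetuin-A was the most abundant member and had the smallest range of the 8, 1.25-fold over the 6 libraries. Ahsg (gene ID 11625, chromosome 16 from 22892015 to 22899451, plus strand, 7 exons in its main transcript) had 5269, 4436 and 4648 CPM in the LT livers, and 4674, 5128 and 5539 CPM in the LKO-labelled livers. Averages were 4784 ± 433 and 5114 ± 432 CPM (± SD, n = 3 mice per group), and LT replicate 1 lay above LKO-labelled replicates 1 and 2. The fold was 1.07, with a 95% interval of 0.786 to 1.45 (log2 fold change 0.10, SE 0.19, adjusted p = 0.995 by edgeR). At 192099 to 262315 reads per library, counting error was negligible beside the spread between mice. An antisense gene, Gm30505, overlaps the locus on the other strand and had 55 to 93 reads.

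Fetuin-B lies 18930 bases from Ahsg on the same chromosome, at 22918382 to 22939768 on the plus strand. Fetub had 265, 241 and 214 CPM in the LT livers, and 186, 221 and 270 CPM in the LKO-labelled livers, so both the lowest and the highest library carried the Fpn-LKO label. The fold was 0.940 with a 95% interval of 0.721 to 1.23 (log2 fold change -0.09, SE 0.16, adjusted p = 0.995 in the edgeR test). Without LKO-labelled replicate 1 the log2 fold change was 0.03.

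Lect2 (chromosome 13 from 56529734 to 56548559, minus strand, 4 exons) had 124, 83.6 and 141 CPM in the LT livers, and 163, 129 and 146 CPM in the LKO-labelled livers. Averages were 116 ± 29.4 and 146 ± 16.9 CPM (± SD, n = 3 mice per group), and LT replicate 3 stood above LKO-labelled replicate 2. The fold was 1.26 with a 95% interval of 0.911 to 1.74 (log2 fold change 0.33, SE 0.20, unadjusted p = 0.137, adjusted p = 0.982 by edgeR). An exact two-sided permutation test on log2 CPM gave p = 0.2, where 3 mice against 3 cannot give less than 0.1.

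The call on overlap for Lect2 depended on the unit. On deposited TPM it had 199, 120 and 185 in LT and 230, 221 and 221 in the LKO-labelled livers, so the groups did not overlap, as for 8.89% of the 11464 genes whose mean TPM reached 1 (exact two-sided permutation test, p = 0.1). TPM is a share of a total, and the noncoding RNAs Rn7s1, Rn7s2, Rn7sk, Rpph1 and Rmrp, chosen after their values were seen, took 32.2% to 35.0% of it in LT. They took 41.1% in LKO-labelled replicate 1 and 16.1% and 20.2% in replicates 2 and 3. Their part in the TPM result was not tested. With each mouse left out in turn, the log2 fold change of Lect2 on counts ran from 0.15 without LT replicate 2 (unadjusted p = 0.365, adjusted p = 1.000, edgeR) to 0.50 without LT replicate 3 (unadjusted p = 0.044, adjusted p = 0.893, edgeR). The other 4 omissions gave 0.25 to 0.41.

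**Figure D2:**
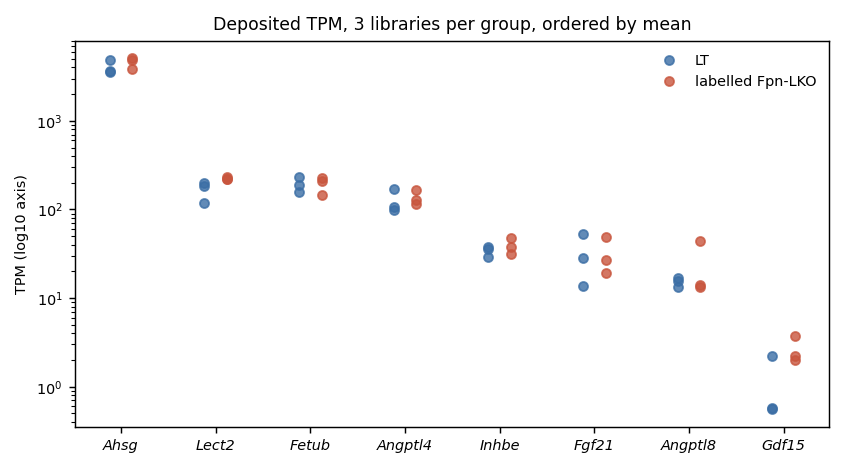
Deposited TPM of the 8 genes (vertical log10 axis) in the LT libraries and those labelled Fpn-LKO, ordered by their mean over 6 libraries. Ahsg lies at 3533 TPM or above in every library, Gdf15 at 3.74 or below, and the groups separate for Lect2 only, where LT reaches 199 and the other libraries start at 221.

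Levels of different genes are comparable only per length, so the order of abundance was taken from TPM. Ahsg averaged 4311 ± 702 TPM (SD over 6 libraries), 22.0 times the next gene. Lect2 at 196 ± 41.0 TPM and Fetub at 194 ± 37.0 TPM were not separable, as each was above the other in 3 of 6 libraries. Angptl4 followed at 130 ± 30.6 TPM, below Fetub in 6 of 6 libraries although their ranges overlapped. Inhbe at 36.5 ± 6.54 TPM and Fgf21 at 31.6 ± 15.8 TPM overlapped, with Inhbe higher in 4 of 6 libraries. Angptl8 at 19.6 ± 12.1 TPM was below Fgf21 in 5 of 6, and Gdf15 was the lowest at 1.88 ± 1.20 TPM, below Angptl8 in all 6.

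Gdf15 had the highest log2 fold change of the 8 and the fewest reads. The gene lies on chromosome 8 from 70629393 to 70632470 on the minus strand, with 2 exons, and encodes a hormone that acts on the brainstem to curb appetite. It had 123, 30 and 33 reads in LT and 120, 97 and 183 reads in the LKO-labelled livers. As CPM these were 2.47, 0.693 and 0.798 in LT and 2.52, 2.08 and 3.94 in the LKO-labelled livers. LT replicate 1 was at the level of LKO-labelled replicate 1 and above replicate 2. The fold was 2.14 with a 95% interval of 0.905 to 5.06 (log2 fold change 1.10, SE 0.53, unadjusted p = 0.075, adjusted p = 0.982 by edgeR). Without LT replicate 1 the log2 fold change was 1.93 with an unadjusted p of 0.003 (adjusted p = 0.886, edgeR). It was lower without LT replicate 2 (0.80, unadjusted p = 0.192), LT replicate 3 (0.84, unadjusted p = 0.192) or LKO-labelled replicate 3 (0.79, unadjusted p = 0.224) in the same edgeR test. DESeq2 gave an unadjusted p of 0.034 on all 6 libraries (adjusted p = 0.851).

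Fgf21 differed more between mice of a group than between the groups. It lies on chromosome 7 from 45613890 to 45615490 on the minus strand, in 3 exons, and encodes a hormone of the fasting and stress responses. It had 35.2, 21.4 and 11.2 CPM in the LT livers, and 14.8, 17.2 and 35.3 CPM in the LKO-labelled livers. The highest LT library and the highest LKO-labelled library were level, and the range within LT was 3.14-fold. The fold between the groups was 0.990 with a 95% interval of 0.473 to 2.07 (log2 fold change -0.01, SE 0.46, adjusted p = 0.997 by edgeR), so a change within that interval could not be told from none.

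Angptl4 and Angptl8, inhibitors of lipoprotein lipase, gave different pictures. Angptl4 (chromosome 17 from 33774900 to 33781575, minus strand, 7 exons) had 228, 160 and 163 CPM in the LT livers, and 178, 212 and 182 CPM in the LKO-labelled livers (fold 1.04, 95% interval 0.792 to 1.36, adjusted p = 0.995 by edgeR). Angptl8 (chromosome 9 from 21835510 to 21837347, plus strand, 4 exons) had 9.64, 9.33 and 12.6 CPM in the LT livers, and 9.83, 7.80 and 28.9 CPM in the LKO-labelled livers. Its fold was 1.47 with a 95% interval of 0.693 to 3.13 (log2 fold change 0.56, SE 0.47, adjusted p = 0.985 by edgeR). That value rested on replicate 3, since LKO-labelled replicates 1 and 2 lay within or below the LT range and the log2 fold change without replicate 3 was -0.25. Angptl8 lies wholly within Dock6, which is read from the other strand, and whether strand was used in the counting is not given in the sources used here. Dock6 had its lowest value, 4.57 CPM, in the library where Angptl8 was highest.

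Inhbe (chromosome 10 from 127349402 to 127351848, minus strand, 2 exons) was close to level in 5 libraries, with 55.8, 66.2 and 56.2 CPM in the LT livers, and 55.7 and 56.2 CPM in LKO-labelled replicates 1 and 2, and reached 79.9 CPM in replicate 3. The fold was 1.08 with a 95% interval of 0.822 to 1.41 (log2 fold change 0.11, SE 0.17, adjusted p = 0.995 by edgeR), and without replicate 3 the log2 fold change was -0.08. The antisense gene Gm47200 spans the Inhbe locus.

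**Figure D3:**
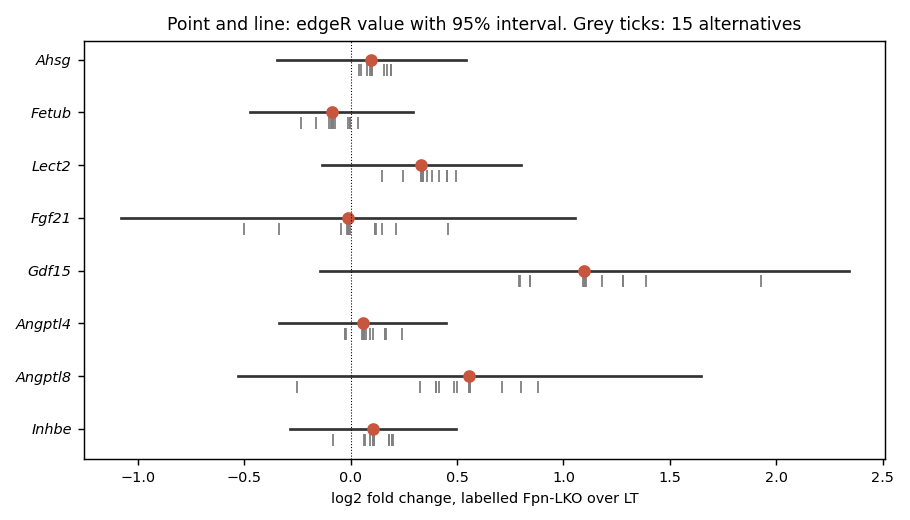
Log2 fold change of each member, LKO-labelled livers over LT (horizontal axis), as the edgeR value (point) with its 95% interval (line) and the values under 15 alternatives (grey ticks). All 8 intervals include 0, and the widest, for Gdf15, runs from -0.14 to 2.34.

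The precision differed between members. The intervals leave out changes beyond 1.45-fold for Ahsg, 1.36-fold for Angptl4 and 1.41-fold for Inhbe on the higher side, but reach 3.13-fold for Angptl8 and 5.06-fold for Gdf15. The biological coefficient of variation, the spread between mice beyond counting error, was 0.177 for Ahsg and Fetub, 0.199 for Lect2, 0.179 for Angptl4 and 0.175 for Inhbe, below the median of 0.240 over all genes. It was 0.394 for Fgf21, 0.400 for Angptl8 and 0.454 for Gdf15. Among genes within a factor of 2 of its CPM, Fgf21 was more variable than 98.4% of 4088 genes, Angptl8 than 97.9% of 4325 and Gdf15 than 90.9% of 2990. Ahsg was more variable than 14.5% of 55 such genes, and Lect2 than 82.5% of 1312. Fetub, Angptl4 and Inhbe, below the median of all genes, were more variable than 65.0%, 70.6% and 74.4% of the genes at their own level.

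Replicate 3 labelled Fpn-LKO was the highest library for 6 members, Ahsg, Fetub, Fgf21, Gdf15, Angptl8 and Inhbe, while Lect2 was highest in replicate 1 of that label and Angptl4 in LT replicate 1. The same library was the highest for 7 of 8 Kupffer cell markers, the genes of the liver's resident macrophages. The exception was Marco, with 27.4 CPM in LT replicate 2 and 22.9 CPM in that library. Of 8 hepatocyte markers 0 were highest there, of 8 stellate cell markers 2, and of 6 endothelial markers 2. The share of all genes highest in that library was not counted. Clec4f had 159 CPM there against 78.9 to 119 CPM in the other 5 libraries, and Adgre1 had 59.8 CPM against 24.1 to 35.3 CPM. The summed Kupffer markers were 287 to 386 CPM in the LT livers, and 239 to 509 CPM in the LKO-labelled livers, and none was at 0. Their part in the Angptl8 and Inhbe values was not tested.

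**Figure D4:**
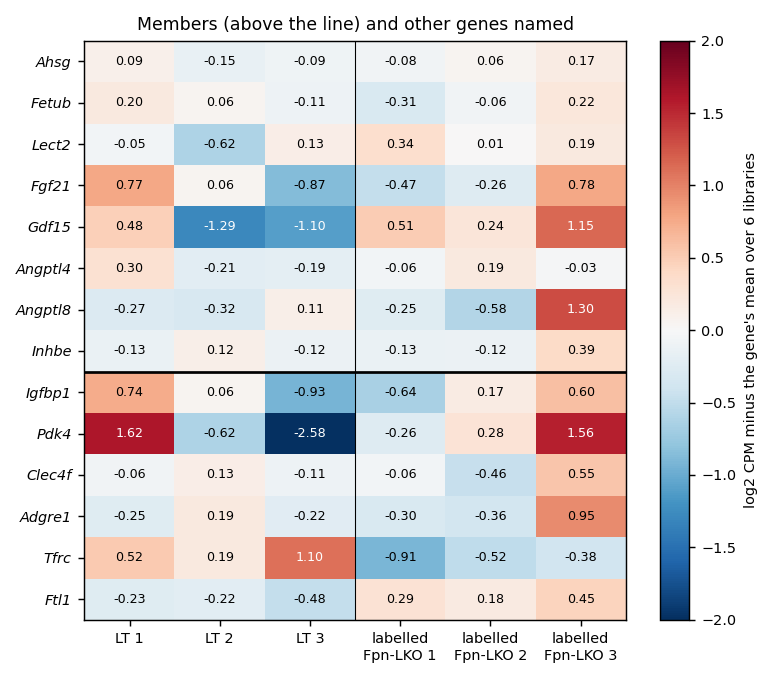
Log2 CPM of each gene minus its own mean over the 6 libraries (colour and printed value), for the 8 members above the line and 6 other genes named in the text below it. Fgf21, Igfbp1 and Pdk4 are high in LT 1 and labelled Fpn-LKO 3 and low in LT 3, and Angptl8 stands out in labelled Fpn-LKO 3 at 1.30.

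Genes with a profile like that of each member were sought among 12576 others with a mean of at least 1 CPM, by the largest gap in any of the 6 libraries between centred log2 CPM values. With so many genes and 6 libraries, close matches are a description only. The closest to Ahsg were Tmem205 (largest gap 0.05), Med23 and Chmp5, and the closest to Fetub were Epc2 (0.04), Rictor and Lrwd1. For Lect2 they included Gm14322 (0.14) and Ahsa2. For Fgf21 they were Gsta4 (0.33), G0s2 and Rassf4, of which G0s2, an inhibitor of adipose triglyceride lipase, had 299, 174 and 98.1 CPM in the LT livers, and 137, 197 and 297 CPM in the LKO-labelled livers. For Gdf15 they were Tifa (0.48), Slc16a5 and Adcy5, and since the gap grows with a gene's own range, 2.44 for Gdf15 and 1.65 for Fgf21 on the log2 scale, gaps are not comparable between members. Angptl4 was closest to Rpl35a-ps4 (0.09), Bnip3l and Cmc2, and Inhbe to Skap2 (0.06), Bckdk and Zfp617. For Angptl8 they included Lrrc25 (0.18) and Rps3a1, of which Lrrc25 had 0.844, 0.901 and 1.26 CPM in the LT livers, and 0.985, 0.878 and 3.06 CPM in the LKO-labelled livers. Lrrc25 is expressed mainly in myeloid cells.

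Other genes of the same biology were read from 6 lists, of which 4 hold regulators and targets of programmes known to control members, 1 holds other hepatokines and 1 receptors and partners. Of 77 genes tested on 6 lists, none passed an adjusted p of 0.05 by the quasi-likelihood test of edgeR and 8 had an unadjusted p under 0.05, where 4.8% of all genes did. Without LT replicate 3 those 8 became 19. Inhba passed by DESeq2 and by exactTest, where 0.417% and 0.365% of all genes did, and by limma on log2(TPM + 1) none of the 77 did.

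FoxO1 itself had 15.8, 19.2 and 9.91 CPM in the LT livers, and 10.9, 24.3 and 12.3 CPM in the LKO-labelled livers. The log2 fold change was 0.08 (SE 0.35, adjusted p = 0.995, edgeR). A transcript level says nothing of how much FoxO1 protein there was or where it was. By Western blot, the study reports more FoxO1 protein in livers of HFD-fed Fpn-LKO mice than of HFD-fed LT mice. Of 9 tested genes of FoxO factors and their targets, none had an unadjusted p under 0.05, and the median log2 fold change was 0.02. Igfbp1, a FoxO1 target that insulin represses and itself a hepatokine, had 49.9, 31.1 and 15.6 CPM in the LT livers, and 19.1, 33.5 and 45.3 CPM in the LKO-labelled livers. G6pc, the last enzyme of glucose release, and Pck1, an enzyme of gluconeogenesis, had log2 fold changes of -0.32 and 0.12 (adjusted p = 0.985 and 0.995 by edgeR).

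The integrated stress response, the ATF4 programme that induces Fgf21 and Gdf15, gave a median log2 fold change of -0.13 over 12 tested genes. Atf3, a stress-induced transcription factor, was the one gene with an unadjusted p under 0.05, with 0.663, 0.600 and 1.52 CPM in the LT livers, and 4.68, 1.20 and 3.64 CPM in the LKO-labelled livers (log2 fold change 1.78, SE 0.58, unadjusted p = 0.017, adjusted p = 0.982, edgeR). Asns, asparagine synthetase, had a log2 fold change of the opposite sign, with 1.77, 14.0 and 34.9 CPM in the LT livers, and 3.63, 2.08 and 6.29 CPM in the LKO-labelled livers (log2 fold change -2.08, adjusted p = 0.982), a gene for which LT itself spanned 1.77 to 34.9 CPM.

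PPARα is the fatty acid sensor that induces Fgf21 and Angptl4 on fasting, and of 15 tested genes of its list none had an unadjusted p under 0.05 in the edgeR test, with a median log2 fold change of -0.18 and 12 values below 0. Over the 6 libraries, 13 of the 15 genes were highest in LT replicate 1 and 12 were lowest in LT replicate 3. Cyp4a14, a fatty acid hydroxylase, had 3777, 1791 and 189 CPM in the LT livers, and 1197, 518 and 680 CPM in the LKO-labelled livers. Pdk4, which holds back glucose oxidation, had 19.0, 3.99 and 0.991 CPM in the LT livers, and 5.14, 7.47 and 18.2 CPM in the LKO-labelled livers. Over the 6 libraries Fgf21 was also lowest in LT replicate 3. Its highest library was LKO-labelled replicate 3 (35.3 CPM), with LT replicate 1 next to it at 35.2 CPM. Of the 15 genes, 1 was highest in LKO-labelled replicate 3.

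Lipogenic genes that insulin induces, as it does Angptl8, had a median log2 fold change of -0.52 over 11 tested genes, with 10 values below 0. Fasn, fatty acid synthase, had 88.8, 177 and 79.8 CPM in the LT livers, and 47.2, 72.2 and 58.2 CPM in the LKO-labelled livers (log2 fold change -0.96, SE 0.32, unadjusted p = 0.017, adjusted p = 0.982, edgeR). Acaca, acetyl-CoA carboxylase, had a log2 fold change of -0.71 (unadjusted p = 0.004, adjusted p = 0.747) and Acly, ATP citrate lyase, of -0.54 (unadjusted p = 0.033, adjusted p = 0.982) in the same test. The groups did not overlap for these 3 of the 11 genes, where 10.6% of all genes tested did not overlap and 4.8% had an unadjusted p under 0.05. Scd1, stearoyl-CoA desaturase, spanned 46.1 to 1222 CPM within the LKO-labelled livers.

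**Figure D5:**
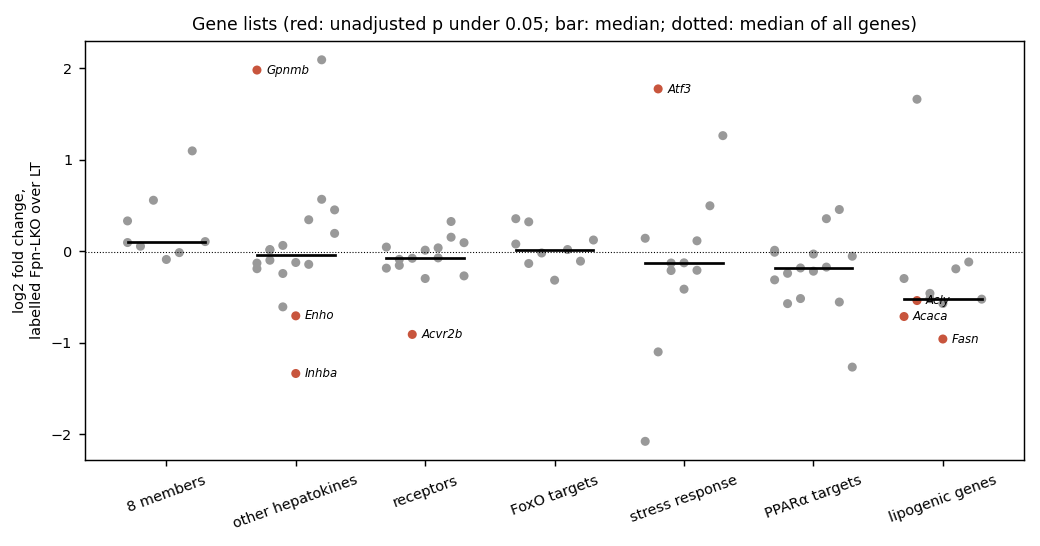
Log2 fold change, LKO-labelled livers over LT (vertical axis), of the tested genes on 7 lists, with the list median (bar), the median of all genes (dotted line) and genes with an unadjusted p under 0.05 in red. None of the 8 members is red, the lipogenic median is -0.52, and the red genes are 8 in all.

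Other hepatokines, 20 listed and 18 tested, had a median log2 fold change of -0.04 with 9 values on each side of 0. None passed an adjusted p of 0.05 by the quasi-likelihood test, and 3 had an unadjusted p under 0.05. Inhba, the activin βA subunit and thus a relative of Inhbe, had 11.8, 22.2 and 18.4 CPM in the LT livers, and 5.68, 6.68 and 8.43 CPM in the LKO-labelled livers (log2 fold change -1.34, SE 0.26, adjusted p = 0.539). Inhbc, the subunit most like Inhbe, had a log2 fold change of -0.14 (adjusted p = 0.991). Gpnmb, which macrophages also express, had 0.0803 to 0.300 CPM in the LT livers, and 0.733 to 0.881 CPM in the LKO-labelled livers (log2 fold change 1.98, SE 0.51, adjusted p = 0.823). The groups did not overlap for Inhba or Gpnmb, 2 of the 18 genes, where 10.6% of all genes tested did not. With exactTest, the test the study used, the adjusted p of Inhba was 0.00282, and with DESeq2 it was 0.000889, so its call depends on the test. Enho, which encodes adropin, had a log2 fold change of -0.71 (SE 0.22, adjusted p = 0.982) and overlapped between groups.

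Receptors and partners of these proteins were read in the same liver libraries, although most act in other tissues. Of 18 listed genes 14 were tested, with a median log2 fold change of -0.07. Klb, the co-receptor of FGF21, had 62.0, 38.9 and 33.6 CPM in the LT livers, and 64.8, 35.4 and 27.4 CPM in the LKO-labelled livers. Insr, the insulin receptor that fetuin-A inhibits, had a log2 fold change of -0.15 (SE 0.16, adjusted p = 0.991 by edgeR), and Met, a receptor reported to bind LECT2, one of -0.07. Tie1, another LECT2 receptor, had 7.11, 8.84 and 7.25 CPM in the LT livers, and 9.71, 9.51 and 9.87 CPM in the LKO-labelled livers, without overlap (log2 fold change 0.33, SE 0.15, unadjusted p = 0.061, adjusted p = 0.982 by edgeR). Acvr2b, an activin receptor, was the one gene of the list with an unadjusted p under 0.05 (log2 fold change -0.91, SE 0.34, unadjusted p = 0.031, adjusted p = 0.982). Gfral, the receptor of GDF15, which is a gene of the brainstem, and its partner Ret had no reads in any of the 6 libraries.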

How the data were processed

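Liver RNA of 3 LT and 3 Fpn-LKO mice was sequenced, 1 library per mouse, with groups and replicate numbers from the labels. Per the labels, an mRNA library kit that keeps strand was used. The methods name a total RNA kit with rRNA removal. The submitters' processing notes list bcl2fastq 2.20.0, FastQC 0.11.7, HISAT2 2.1.0, Bowtie2 2.3.4.1, StringTie 2.1.3b and the build mm10. The authors deposited read counts per gene, not normalized, as StringTie gives them. The authors also deposited FPKM, scaled to length and library size, and TPM, which adds up to the same total in each library. Total counts lay between 43086184 and 47778683, so counting error was largest for Gdf15, the member with the fewest reads. No pair of libraries of a group agreed within sampling noise.

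Counts were tested with edgeR 4.0.16 in R 4.3.3 (quasi-likelihood, TMM), after genes without reads in more than 1 library were dropped, on all 17274 genes kept, with Benjamini-Hochberg adjustment and a threshold of 0.05. The study's methods used exactTest, an alternative here. Intervals of 95% come from the same fit. P-values come from setting the difference between groups against the spread between mice. The other alternatives were RLE scaling, DESeq2 1.42.0, all genes with at least 1 read, filterByExpr, a replicate block, limma 3.58.1 on log2(TPM + 1) and log2(TPM + 0.1), and leaving out each mouse. A limma fold change is on the log2(TPM + pseudocount) scale, which understates low genes. The levels were also ordered by FPKM, and FoxO was also searched by its core. Likeness used log2 CPM with a prior count of 2. Scripts were tested on simulated data.

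The members and lists were chosen with earlier results of these data known. Some genes of the other hepatokine and lipogenic lists and of the likeness search are not reported here, and the list counts and medians leave them out. The genes named are the members, Slc40a1, Tfrc, Ftl1 and Fth1, list genes, with those at an unadjusted p under 0.05 or a high mean preferred, and up to 3 genes most like each member, and others, such as Dock6, Gm30505, Gm47200, Asns, Scd1 and Tie1, were chosen after their values were seen. Gene positions and promoter sequences are from RefSeq (GRCm38.p6), with 7 of the 8 members matched to a promoter, and overlapping genes from GENCODE. BLAST 2.17.0 found no copy of a member with at least 90% identity over at least 100 bases in another gene.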

Additional observations from a re-analysis of the deposited data

How the results depend on the processing

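None of the 8 members passed the threshold under any alternative. Over the 15 alternatives the log2 fold change kept its sign for Ahsg (0.04 to 0.19), Lect2 (0.15 to 0.50) and Gdf15 (0.79 to 1.93). The range when a mouse was left out was -0.23 to 0.033 for Fetub, -0.50 to 0.46 for Fgf21, -0.029 to 0.24 for Angptl4, -0.25 to 0.88 for Angptl8 and -0.085 to 0.20 for Inhbe. The sign turned for Fetub without Fpn-LKO replicate 1 (0.033). For Fgf21 it was 0.11 with limma on log2(TPM + 1), with or without the filter, 0.12 on log2(TPM + 0.1), and 0.15 to 0.46 without LT replicate 1 or Fpn-LKO replicate 1 or 2 (0.46, 0.21 and 0.15). For Angptl4 it was -0.029, -0.022 and -0.028 without LT replicate 2, LT replicate 3 and Fpn-LKO replicate 2. Without Fpn-LKO replicate 3 it was -0.25 for Angptl8 and -0.085 for Inhbe. Of 120 such values, 108 kept the sign. The number of genes past the threshold, 4, became 72 with DESeq2, 63 with exactTest and 7 with limma on log2(TPM + 1) or log2(TPM + 0.1), and lay between 0 and 6 when a mouse was left out (0 without LT replicate 2, 1 without LT replicate 1, LT replicate 3 or Fpn-LKO replicate 2). With the replicate number as a block it was 0 (850 genes with an unadjusted p under 0.05), and Lect2 had an unadjusted p of 0.049. Same-numbered libraries deviated together with correlations of 0.25, 0.026 and 0.13, so the number was not taken to pair the mice, and the LT 2 library did not correlate best with its own number. The count of list genes with an unadjusted p under 0.05, 8, was 4 with limma on all genes with a TPM above 0, and 6 to 19 when a mouse was left out. The causes were not tested. The order of the 8 levels was the same on FPKM, and the FoxO core matched the same gene, Fetub. Gdf15 had the fewest reads of the members, 30 to 183, and depth was not tested as a limit.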

Other observations

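Markers of other liver cells were read beside the members. The summed markers of endothelial cells were 268 to 325 CPM in the LT livers, and 255 to 270 CPM in the LKO-labelled livers. Of these 6 genes, 4 had a log2 fold change below 0 and 2 above, Lyve1 (1.30) and Pecam1 (0.34). The summed markers of stellate cells were 419 to 493 and 457 to 489 CPM. Of those 8 genes, 7 had a log2 fold change above 0. The groups did not overlap for 2 of them, Col1a1 and Pdgfrb, where 10.6% of all genes tested did not. The summed blood markers, mainly globins, were 351 to 941 CPM in the LT livers, and 473 to 1243 CPM in the LKO-labelled livers, with all 5 genes highest in Fpn-LKO replicate 2. Cholangiocyte markers summed to 12.8 to 84.4 CPM in the LT livers, and at most 29.9 CPM in the LKO-labelled livers, the LT 3 library being the highest through Spp1. Lymphocyte markers summed to 0.803 to 5.06 and 0.728 to 0.901 CPM. Of 5 adipocyte markers, Adipoq, Lep and Plin1 had 0 reads in all libraries, and Fabp4, which macrophages and endothelial cells also express, had 1.93, 2.54 and 3.31 CPM in the LT livers, and 7.63, 3.28 and 5.41 CPM in the LKO-labelled livers (log2 fold change 1.07, SE 0.35, unadjusted p = 0.017, adjusted p = 0.982 by edgeR).

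Among hepatocyte genes, Hnf4a, a transcription factor of hepatocyte identity, had 239, 250 and 265 CPM in the LT livers, and 310, 344 and 286 CPM in the LKO-labelled livers, without overlap (log2 fold change 0.32, SE 0.12, unadjusted p = 0.033, adjusted p = 0.982 by edgeR). Hnf4a was the 1 of the 8 hepatocyte markers with an unadjusted p under 0.05, and the 1 without overlap. Over all genes tested these shares were 4.8% and 10.6%. The log2 fold change was above 0 for 6 of the 8 markers and below 0 for 2. Alb, whose promoter drives the Cre, had a log2 fold change of 0.01 (SE 0.29).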
